A study of Mus musculus with 2 samples.

Results

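Transcripts of 10 tubulin genes, 3 alpha isotypes (Tuba1a, Tuba1b and Tuba1c) and 7 beta isotypes (Tubb2a, Tubb2b, Tubb3, Tubb4a, Tubb4b, Tubb5 and Tubb6), were compared between cultured mouse neural retinal progenitor cells (mNRPCs) and mouse retina. They were taken by name from 31253 genes, and all 10 were found, each as 1 curated RefSeq transcript. The mNRPC group was 1 library of C57BL/6 retinal progenitor cells at passage 24, and the retina group was 1 library of C57BL/6 retina tissue. By the study's methods, the cells came from neural retina of adult mice and grew on Matrigel in N2/B27 medium with bFGF (basic fibroblast growth factor) and CHIR99021, which inhibits the kinase GSK3. Whether the culture was 1 clone was not stated. The age of the mice behind the retina library and the number pooled were not stated either. With 1 library a group, the differences have no replicate check, and p-values were not calculated.

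Microtubules are hollow polymers of heterodimers, each of 1 alpha and 1 beta tubulin. Vertebrates carry several genes for each, whose products differ most in the acidic tails at their carboxyl ends, where enzymes add or remove glutamate, glycine and tyrosine and where motors and microtubule-associated proteins bind. Some isotypes are made by nearly all cells. Others are typical of neurons, and Tubb3 is widely used as a neuronal marker.

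The bases that code for the tails of 6 beta isotypes are shown because the tails are where isotypes differ most. Each line is the last 60 coding bases before the stop codon, 5′ to 3′, of the GENCODE M21 transcript (GRCm38) matched to the RefSeq accession, and capitals mark codons for glutamate (GAA or GAG).
Tubb2a: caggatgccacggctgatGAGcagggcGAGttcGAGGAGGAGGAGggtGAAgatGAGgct
Tubb2b: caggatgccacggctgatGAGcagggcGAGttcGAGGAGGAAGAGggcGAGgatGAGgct
Tubb3: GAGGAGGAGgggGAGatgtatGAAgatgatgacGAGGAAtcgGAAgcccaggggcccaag
Tubb4a: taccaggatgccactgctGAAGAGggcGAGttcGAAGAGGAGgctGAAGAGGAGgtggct
Tubb4b: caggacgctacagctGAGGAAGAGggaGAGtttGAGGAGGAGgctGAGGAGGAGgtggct
Tubb5: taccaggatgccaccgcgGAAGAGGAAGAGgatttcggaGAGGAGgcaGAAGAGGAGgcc
The Tubb2a and Tubb2b ends differed at 3 of the 60 bases, all synonymous, so their tails have the same residues. Glutamate codons among the last 20 numbered 8 in Tubb2a, Tubb2b and Tubb3, 9 in Tubb4a and Tubb5, and 10 in Tubb4b. Of the 6, Tubb3 alone ended in a lysine codon (AAG), and the others ended in an alanine codon (GCT or GCC).

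The isotypes are alike enough for reads to fit more than 1 of them. Coding identity was 97.1 to 98.3% among the 3 alpha isotypes and 80.2 to 96.5% among the beta isotypes, with Tubb2a and Tubb2b as the closest beta pair. Of all 100-base windows of its transcript, Tuba1a had 34.9% in no other GENCODE gene, Tuba1b 30.5% and Tuba1c 46.6%. For Tubb2a this was 63.1%, for Tubb2b 72.3% and for Tubb4b 70.8%, the last sharing windows mostly with the pseudogene Tubb4b-ps1. Every such window of Tubb3, Tubb4a, Tubb5 and Tubb6 was in no other gene, and with 50-base windows at least 99.8% were. The division of reads among Tuba1a, Tuba1b and Tuba1c, and between Tubb2a and Tubb2b, is therefore an estimate. Tubb3, Tubb4a, Tubb5 and Tubb6 share hardly any windows.

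**Figure D1:**
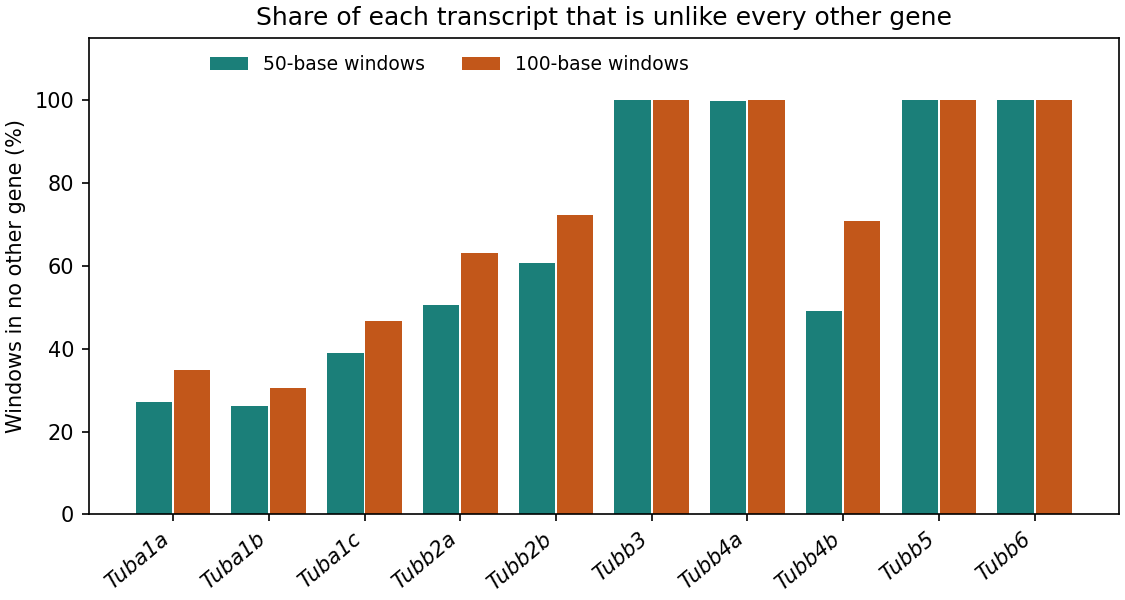
Share of the 50-base and 100-base windows of each isotype's transcript that occur in no other gene of GENCODE M21, in percent. Tubb3, Tubb4a, Tubb5 and Tubb6 stand at or near 100%, and Tuba1a and Tuba1b at 26.2 to 34.9%.

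The alpha genes lie side by side, with Tuba1b at chr15:98931425-98934565, Tuba1a at chr15:98949837-98953703 (both on the minus strand) and Tuba1c at chr15:99029891-99038110 (plus strand). Tubb2a (chr13:34074274-34078007) and Tubb2b (chr13:34126748-34130466) are neighbours too, both on the minus strand. Of the others, Tubb3 is at chr8:123411424-123422015 (plus strand), and Tubb4b (chr2:25222160-25224702), Tubb5 (chr17:35833921-35838306) and Tubb4a (chr17:57080066-57087782) are on the minus strand. Coordinates are those of GENCODE M21 on GRCm38, the assembly whose patch release GRCm38.p3 is named in the submitters' processing notes. Each of the 10 matched transcripts has 4 exons.

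The deposited levels are FPKM, the number of fragments of a transcript divided by its length and by the depth of the library. They summed to 616860 in the mNRPC library and 432256 in the retina library, and depth was estimated from the lowest values at 6.55e+06 and 5.08e+06 fragments. The label of each library was checked against marker genes. Of 34 markers of rods, cones, bipolar, amacrine, horizontal and ganglion cells, 32 were at least 2-fold lower in mNRPCs, and their summed level was 30.5 FPKM in mNRPCs and 26692 FPKM in retina. Of these, 9 were listed at 0 in mNRPCs, among them Rbpms, Sncg, Grm6 and Pde6h. Among the 13780 genes that reached 1 FPKM in either library, 30.0% were at least 2-fold lower. Of 9 progenitor markers 7 reached 1 FPKM in mNRPCs, and Rax was listed at 0 there. Of 8 fibroblast and mesenchyme markers 6 reached 1 FPKM in mNRPCs, and their sum of 470 FPKM (11.3 FPKM in retina) was nearly all Col3a1, at 450 FPKM, while Lum was listed at 0 in both libraries.

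Of the 10 isotypes, 4 were at least 2-fold higher in mNRPCs (Tuba1c, Tubb2b, Tubb5 and Tubb6), 3 were at least 2-fold lower (Tubb2a, Tubb3 and Tubb4a) and 3 were within 2-fold (Tuba1a, Tuba1b and Tubb4b). The log2 ratio behind these counts is log2 of (mNRPC FPKM + 1)/(retina FPKM + 1), with 2-fold meaning at least 1 in size. Of the 13780 genes that reached 1 FPKM in either library, 24.5% were at least 2-fold higher in mNRPCs and 30.0% at least 2-fold lower. The median log2 ratio was 0.89 for the 10 isotypes and −0.12 for all genes compared. Rescaling both libraries to a common FPKM sum shifted log2 ratios by −0.51 before 1 was added, trimmed mean scaling by −0.12 and upper quartile scaling by −0.13. Under rescaling 2639 of all genes were higher and 5619 lower, against 3371 and 4130 as deposited. The counts of 4 higher and 3 lower isotypes were the same under every scaling, with Tubb2b nearest to the threshold at 1.03 after rescaling.

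**Figure D2:**
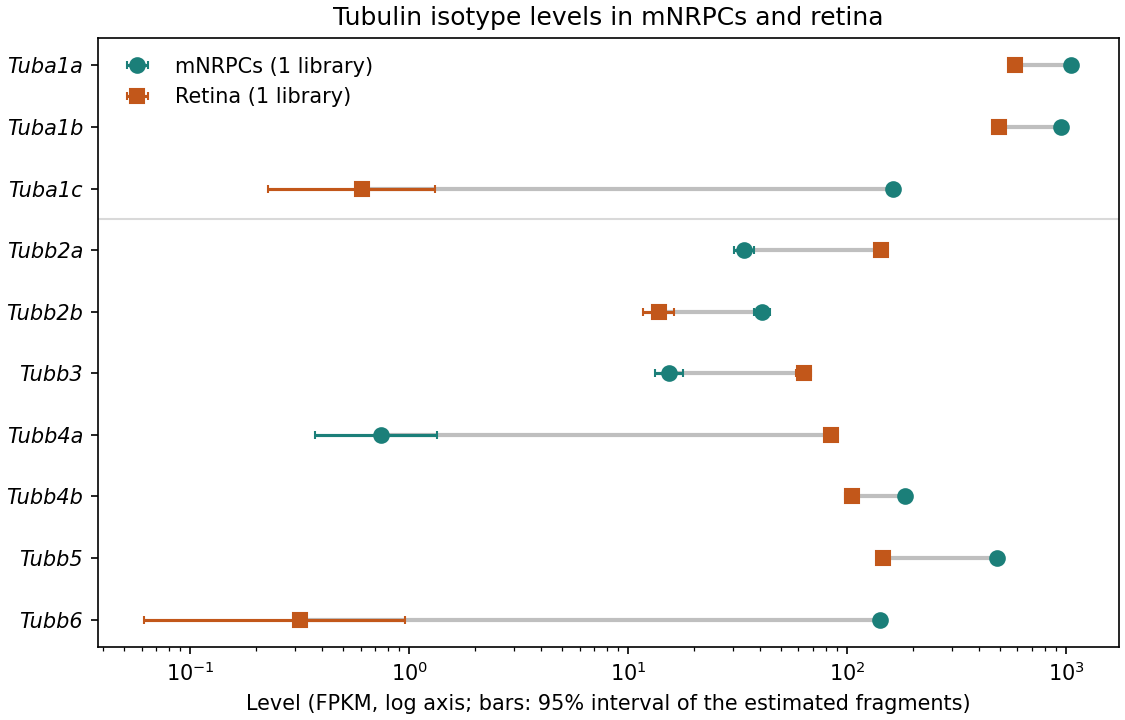
Level of each isotype in FPKM on a log axis, with circles for the mNRPC library, squares for the retina library and bars for the 95% interval of the estimated fragments, which covers counting error only. Tuba1c and Tubb6 are below 1 FPKM in retina, and Tubb4a is below 1 FPKM in mNRPCs.

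Tuba1a, the main alpha isotype of neurons, was at 1050 FPKM in mNRPCs and 587 FPKM in retina (log2 ratio 0.84). Tuba1b, an alpha isotype of most dividing cells, was at 944 FPKM in mNRPCs and 492 FPKM in retina (0.94). Both ranked high in each library, at places 91 and 101 of all genes in mNRPCs and at places 50 and 66 in retina. The ratio of Tuba1a to Tuba1b was 1.11 in mNRPCs and 1.19 in retina.

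Tuba1c, the third alpha isotype, was at 161 FPKM in mNRPCs and 0.609 FPKM in retina, a log2 ratio of 6.66. The retina value came to an estimated 6.13 fragments. Without the added 1 the fold was 265 (95% interval 123 to 714, counting error only). Of the 13780 genes compared, 24 had a larger log2 ratio. The neighbouring genes of chromosome 15 thus differed by 0.84, 0.94 and 6.66 on the log2 scale.

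Of the beta isotypes typical of neurons, Tubb3 was at 15.4 FPKM in mNRPCs and 63.4 FPKM in retina (log2 ratio −1.98), a level 4.12-fold lower in mNRPCs (3.49 to 4.88, counting error only). Its mNRPC value came to an estimated 188 fragments, well above the limit of 3 fragments (0.245 FPKM for Tubb3 in that library). Tubb3 was thus detected in mNRPCs. All 7 ganglion cell markers were at least 2-fold lower in mNRPCs, beside 30.0% of all genes that reached 1 FPKM in either library. In mNRPCs 2 of the 7 were listed at 0 (Rbpms and Sncg), and the others ran up to 3.003 FPKM (Nefm).

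Tubb4a, an isotype of brain that is abundant in oligodendrocytes and neurons, was at 0.747 FPKM in mNRPCs and 84.3 FPKM in retina (log2 ratio −5.61). The mNRPC value came to an estimated 10.9 fragments, and the level was 113-fold lower in mNRPCs (62.6 to 228, counting error only). Among all genes compared, 192 had a smaller log2 ratio. Tubb3 and Tubb4a were both lower in mNRPCs, and the difference was larger for Tubb4a.

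The neighbouring genes Tubb2a and Tubb2b went in opposite directions. Tubb2a, a beta isotype of mature neurons, was at 33.9 FPKM in mNRPCs and 143 FPKM in retina (log2 ratio −2.05). Tubb2b, known from migrating neurons of the developing cortex, was at 40.9 FPKM in mNRPCs and 13.9 FPKM in retina (1.496). Tubb2a was 10.3 times the level of Tubb2b in retina and 0.829 times its level in mNRPCs. Because reads of this pair are hard to tell apart, their sum was taken too. It was 74.8 FPKM in mNRPCs and 157 FPKM in retina (log2 ratio −1.06).

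Of the isotypes made by many cell types, Tubb5 was higher in mNRPCs and Tubb4b was within 2-fold. Tubb5, the beta isotype of most dividing cells, was at 485 FPKM in mNRPCs and 145 FPKM in retina (log2 ratio 1.73). Tubb4b, a widespread isotype used in cilia, was at 185 FPKM in mNRPCs and 105 FPKM in retina (0.81). It was the beta isotype whose level differed least between the libraries.

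Tubb6, a beta isotype scarce in brain, was at 141 FPKM in mNRPCs and 0.318 FPKM in retina (log2 ratio 6.75). The retina value came to an estimated 2.84 fragments, below the limit of 3 fragments (0.336 FPKM for Tubb6 in that library), so Tubb6 was at the edge of what this depth could show in retina. The ratio was 443, with a counting interval of 147 to 2288. Among all genes compared, 21 had a larger log2 ratio.

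Placed in order of FPKM, which is per length, Tuba1a, Tuba1b and Tubb5 came first in both libraries. Below them the order differed. In mNRPCs it went on with Tubb4b, Tuba1c, Tubb6, Tubb2b, Tubb2a, Tubb3 and Tubb4a, and in retina with Tubb2a, Tubb4b, Tubb4a, Tubb3, Tubb2b, Tuba1c and Tubb6. Counting intervals of neighbours overlapped for Tubb5 and Tubb2a and for Tuba1c and Tubb6, both in retina. The spread between replicates is unknown for all neighbours.

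**Figure D3:**
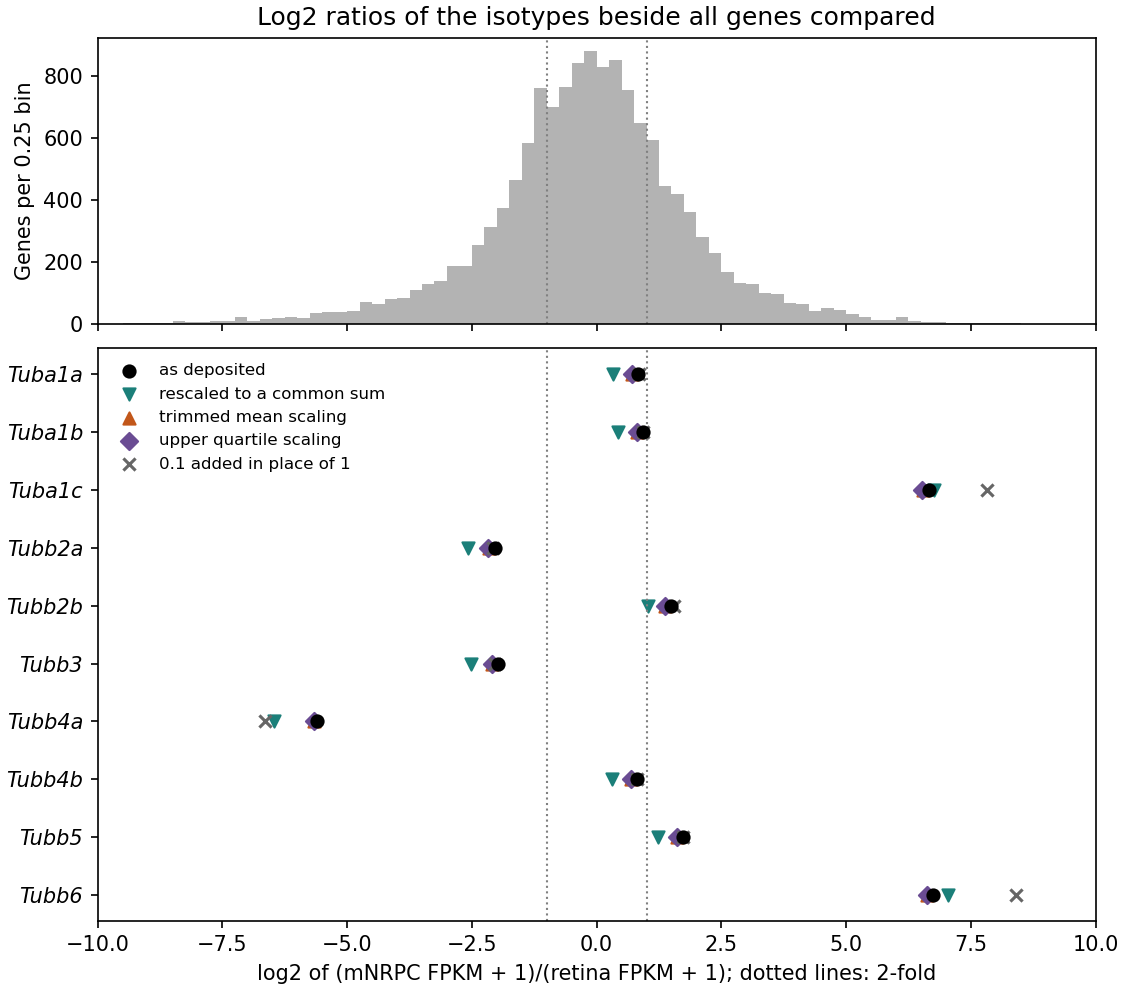
Upper panel, number of genes in each 0.25-wide bin of the log2 ratio over the 13780 genes compared; lower panel, the log2 ratio of each isotype as deposited, under 3 other scalings and with 0.1 added in place of 1. Tuba1c and Tubb6 lie in the upper tail, Tubb4a in the lower tail, and no isotype changes sides of 0.

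Shares within a library do not depend on how the libraries are scaled. The 10 isotypes held 0.495% of the summed FPKM in mNRPCs and 0.378% in retina. Their sum was 3056 FPKM in mNRPCs and 1635 FPKM in retina (log2 ratio 0.90 as deposited, 0.39 after rescaling to a common sum). Alpha isotypes made up 70.5% of the sum in mNRPCs and 66.0% in retina. The alpha sum was 2.39 times the beta sum in mNRPCs and 1.94 times in retina.

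Within the alpha isotypes, Tuba1a held 48.7% in mNRPCs and 54.3% in retina, and Tuba1b held 43.8% and 45.6%. Tuba1c held 7.49% in mNRPCs (95% interval 7.18 to 7.80%) and 0.0564% in retina (0.0210 to 0.122%). These share intervals are binomial and approximate. The count is the isotype's estimated fragments, and the total is that count divided by its FPKM share, not the estimated fragments of the family.

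Within the beta isotypes, Tubb5 held 53.8% in mNRPCs and 26.2% in retina. Tubb6 held 15.6% in mNRPCs (14.9 to 16.3%) and 0.0572% in retina (0.0111 to 0.172%). In the other direction, Tubb2a held 3.77% in mNRPCs and 25.8% in retina. Tubb4a held 0.0829% in mNRPCs (0.0412 to 0.149%) and 15.2% in retina (14.3 to 16.1%). Tubb3 held 1.71% in mNRPCs (1.47 to 1.97%) and 11.4% in retina (10.6 to 12.3%). The share of Tubb4b was 20.5% in mNRPCs (19.7 to 21.3%) and 18.9% in retina (17.7 to 20.1%), with overlapping intervals. That of Tubb2b was 4.54% in mNRPCs and 2.49% in retina. Together, Tubb2a, Tubb2b, Tubb3 and Tubb4a made up 10.1% of beta transcripts in mNRPCs and 54.9% in retina. The beta pool was spread over more isotypes in retina. The number of equally abundant isotypes that would give the same Shannon entropy was 3.62 in mNRPCs and 5.18 in retina, out of 7. For the alpha isotypes it was 2.47 and 2.001, out of 3.

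Retina is a mixture of cell types, and in such bulk samples fewer cells of a type and less RNA per cell cannot be told apart. Besides the neuron and photoreceptor markers given above, all 6 Müller glia markers were at least 2-fold lower in mNRPCs (sum 35.8 FPKM in mNRPCs and 1800 FPKM in retina). Of 6 pigment epithelium markers 4 were lower (0.305 and 269 FPKM). Most of that retina sum was Rlbp1, at 202 FPKM, which is also among the Müller glia markers, while Rpe65 was at 8.53 FPKM in retina. Tubb2a, Tubb3 and Tubb4a were lower as well. Among all genes compared, 24.5% were at least 2-fold higher and 30.0% at least 2-fold lower. Of the 8 fibroblast and mesenchyme markers 3 were at least 2-fold higher (Col3a1, Pdgfrb and Acta2), none was at least 2-fold lower, and Dcn, for example, was at 1.96 FPKM in mNRPCs and 2.58 FPKM in retina. After rescaling to a common sum, Acta2 was within 2-fold and Col1a2 was past it on the lower side, at −1.49. As deposited, Col1a2 was below the minimum of 1 FPKM in both libraries (0.0843 FPKM in mNRPCs and 0.952 FPKM in retina). The part of these cell types in the isotype shares was not tested.

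**Figure D4:**
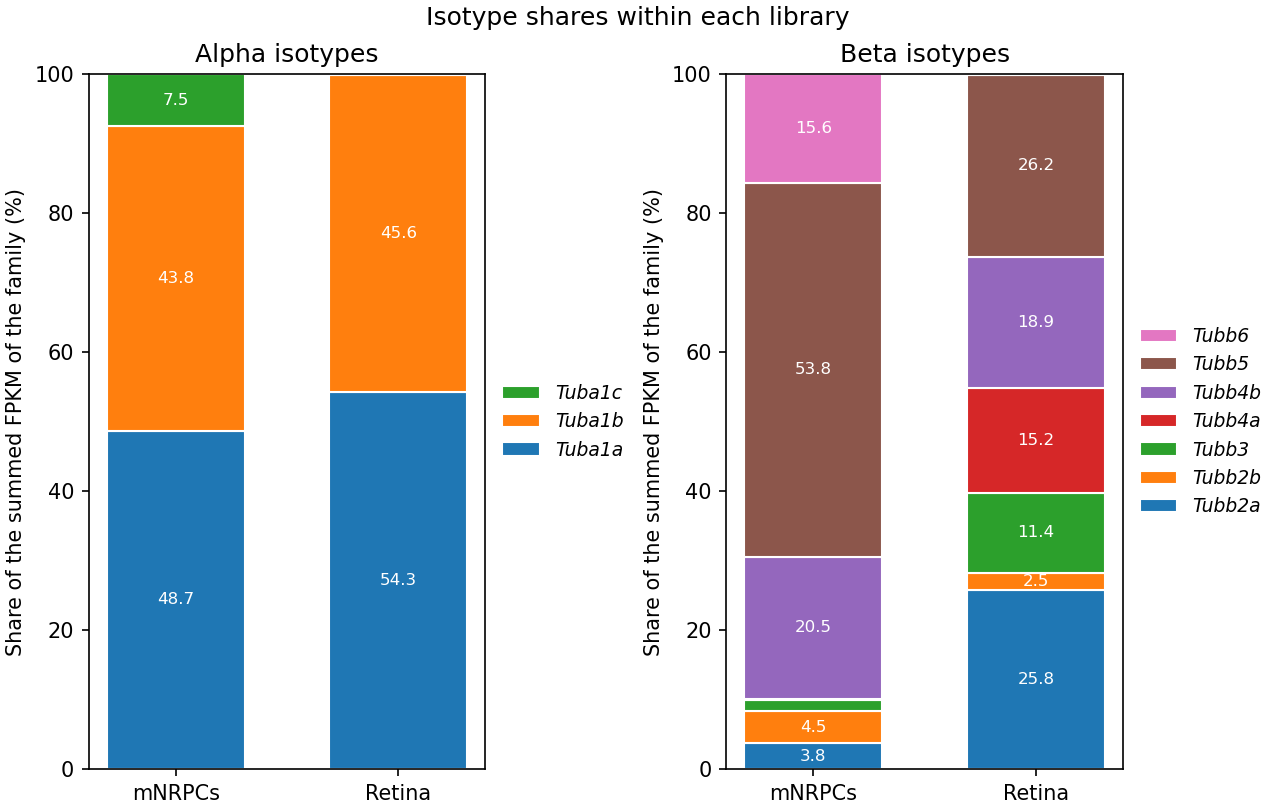
Share of each isotype in the summed FPKM of its family, in percent, for the mNRPC and retina libraries. In the beta panel Tubb5 and Tubb6 fill 53.8% and 15.6% of the mNRPC bar, while Tubb2a, Tubb3 and Tubb4a fill 25.8%, 11.4% and 15.2% of the retina bar.

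The upstream sequences were examined next, because genes of one family and partly of one chromosomal cluster differed in level. RefSeq promoter sequences of GRCm38.p6 were at hand for 8 isotypes. The 250 bases before the start are printed for the isotypes with the largest log2 ratio in each direction among the 8. Tuba1c is at chr15:99029641-99029890 (plus strand) and Tubb4a at chr17:57087601-57087850 (minus strand). The start in RefSeq lies inside the GENCODE gene for Tubb4a, and also for Tuba1a, Tuba1b, Tubb3 and Tubb5. Part of the 250 bases of each of these is therefore within the gene. Capitals mark matches on either strand to the TATA box (spelled TATAAA), the CCAAT box (spelled CCAAT) or the GC box (spelled GGGCGG).
Tuba1c: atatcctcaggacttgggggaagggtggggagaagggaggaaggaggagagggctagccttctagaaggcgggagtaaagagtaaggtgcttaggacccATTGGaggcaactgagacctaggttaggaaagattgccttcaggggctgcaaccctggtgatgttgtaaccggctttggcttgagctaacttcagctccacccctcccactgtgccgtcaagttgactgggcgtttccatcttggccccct
Tubb4a: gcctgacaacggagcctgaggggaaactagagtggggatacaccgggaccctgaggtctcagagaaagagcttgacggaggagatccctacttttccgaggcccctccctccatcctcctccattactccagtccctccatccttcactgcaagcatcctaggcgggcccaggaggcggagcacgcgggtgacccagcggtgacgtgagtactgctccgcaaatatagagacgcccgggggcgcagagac
Tuba1c had 1 CCAAT match, and Tubb4a had none of the 3 motifs. The CpG dinucleotides numbered 4 in Tuba1c and 14 in Tubb4a, against a median of 6 over 27025 promoters. Tuba1a, the nearest of the alpha genes to Tuba1c, had 11 CpG and a GC content of 56.8%, close to the 55.6% of Tuba1c, while Tuba1b had 35 CpG and 75.6%. The median promoter had a GC content of 52.0%. Of the 8, CCAAT was in Tuba1a, Tuba1c, Tubb3, Tubb4b and Tubb5, with 5 matches in Tubb4b, and it was in 34.5% of all promoters. GGGCGG was in Tuba1a, Tuba1b, Tubb2a, Tubb3 and Tubb4b and in 32.9% of all promoters, and TATAAA was in Tubb2a only and in 12.97% of all. These matches are letters in a window and were not tied to binding or to the levels.

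Of 10 other tubulin genes, 6 reached 1 FPKM in a library and 4 were listed at 0. Tuba4a, an alpha isotype without an encoded terminal tyrosine, was at 30.4 FPKM in mNRPCs and 57.2 FPKM in retina (log2 ratio −0.89). Tuba8 was at 4.15 FPKM in retina, and its mNRPC level of 0.0864 FPKM came to an estimated 1.28 fragments. Tuba3a, Tuba3b, Tubal3 and Tubb1, the last a platelet isotype, were listed at 0 in both libraries. Of the gamma tubulins, which nucleate microtubules, Tubg1 was at 34.1 FPKM in mNRPCs and 22.7 FPKM in retina (0.57), and Tubg2, its paralogue, at 3.78 and 17.5 FPKM (−1.95). Tubd1 and Tube1, the delta and epsilon tubulins of centrioles, had log2 ratios of 0.32 (3.42 FPKM in mNRPCs, 2.54 in retina) and −1.33 (3.70 and 10.8 FPKM). Of the 6 that reached 1 FPKM in a library, none was at least 2-fold higher and 3 were at least 2-fold lower. Of all genes compared, which passed the same minimum, 24.5% were higher and 30.0% lower.

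Genes of tubulin folding were described as counts beside the background of 24.5% higher and 30.0% lower. Of 14 genes of the chaperonin and prefoldin, which fold new tubulin chains, 6 were higher and none was lower (median log2 ratio 0.80). Cct2, a chaperonin subunit, was at 311 FPKM in mNRPCs and 83.1 FPKM in retina (1.89), and Pfdn4, of prefoldin, at 65.7 and 17.7 FPKM (1.83). After rescaling to a common sum 2 were higher and 1 lower, and the median was 0.29. That rescaling gave 2639 higher and 5619 lower over all genes. The median of all genes compared was −0.61 with it and −0.12 as deposited. Of 8 genes of tubulin cofactors and of TTC5, which acts in the decay of tubulin transcripts when free tubulin is in excess, 1 was higher and 2 were lower. Tbca, a cofactor that holds beta tubulin before dimer assembly, was at 508 FPKM in mNRPCs and 109 FPKM in retina (2.21), while Tbcc and Tbce, which act at dimer assembly, had log2 ratios of −1.39 and −1.13. Ttc5 was at 13.9 FPKM in mNRPCs and 19.0 FPKM in retina.

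Of 8 genes of the gamma tubulin ring complex, 2 were higher, Nedd1 (23.9 FPKM in mNRPCs and 4.36 FPKM in retina) and Mzt2 (19.0 and 5.72 FPKM), and none was lower. After rescaling 2 were lower as well. The background as deposited was 24.5% higher and 30.0% lower, so 2 of 8 higher is close to the share over all genes compared. Of 25 genes of enzymes that modify tubulin tails and lysines, 4 were higher and 9 lower, with 19 passing the minimum level. Svbp, the partner of the vasohibin enzymes that remove the terminal tyrosine, was at 60.9 FPKM in mNRPCs and 12.6 FPKM in retina (2.19). Vash1, a vasohibin, was at 0.612 FPKM in mNRPCs and 10.04 FPKM in retina (−2.78). The other vasohibin, Vash2, went the opposite way, at 6.75 FPKM in mNRPCs and 1.59 FPKM in retina (1.58). Ttll12 was at 17.6 and 6.21 FPKM (1.37). Ttll11, a polyglutamylase, was at 15.9 FPKM in retina, and its mNRPC level of 0.0868 FPKM came to an estimated 1.80 fragments.

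Proteins that bind microtubules or free tubulin were counted in the same way, beside the background of 24.5% higher and 30.0% lower as deposited. Of 13 genes of neuronal microtubule proteins none was higher and 10 were lower, with 12 passing the minimum level (median log2 ratio −2.29). With 0.1 added in place of 1 the median was −4.02, and with libraries brought to a common sum it was −2.99. Stmn2 and Stmn3, stathmins of neurons that bind free tubulin dimers, reached 44.0 and 166 FPKM in retina and were listed at 0 in the mNRPC library. Of 16 general microtubule proteins 3 were higher and 6 lower. After rescaling to a common sum 2 were higher and 9 lower, against 2639 and 5619 of all genes. Mapre1, which tracks growing plus ends, was at 32.2 FPKM in mNRPCs and 10.2 FPKM in retina (1.57), and Katna1, a severing enzyme, at 31.8 and 14.4 FPKM (1.09). Map7, a partner of kinesin-1, was at 1.17 FPKM in mNRPCs and 83.7 FPKM in retina (−5.29), and Camsap1, which caps minus ends, at 4.38 and 27.4 FPKM (−2.40). With both libraries brought to a common sum, the log2 ratios of Katna1 (0.61) and Ttll12 (0.94) were below 1.

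Of 13 genes of the mitotic spindle 12 were higher in mNRPCs and none was lower (median log2 ratio 4.43). Among all genes compared the shares were 24.5% higher and 30.0% lower. Prc1, which bundles the central spindle, was at 65.5 FPKM in mNRPCs and 0.437 FPKM in retina, and Kif20a, a kinesin of cytokinesis, at 38.8 and 0.197 FPKM. The retina values came to an estimated 6.46 and 3.33 fragments.

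**Figure D5:**
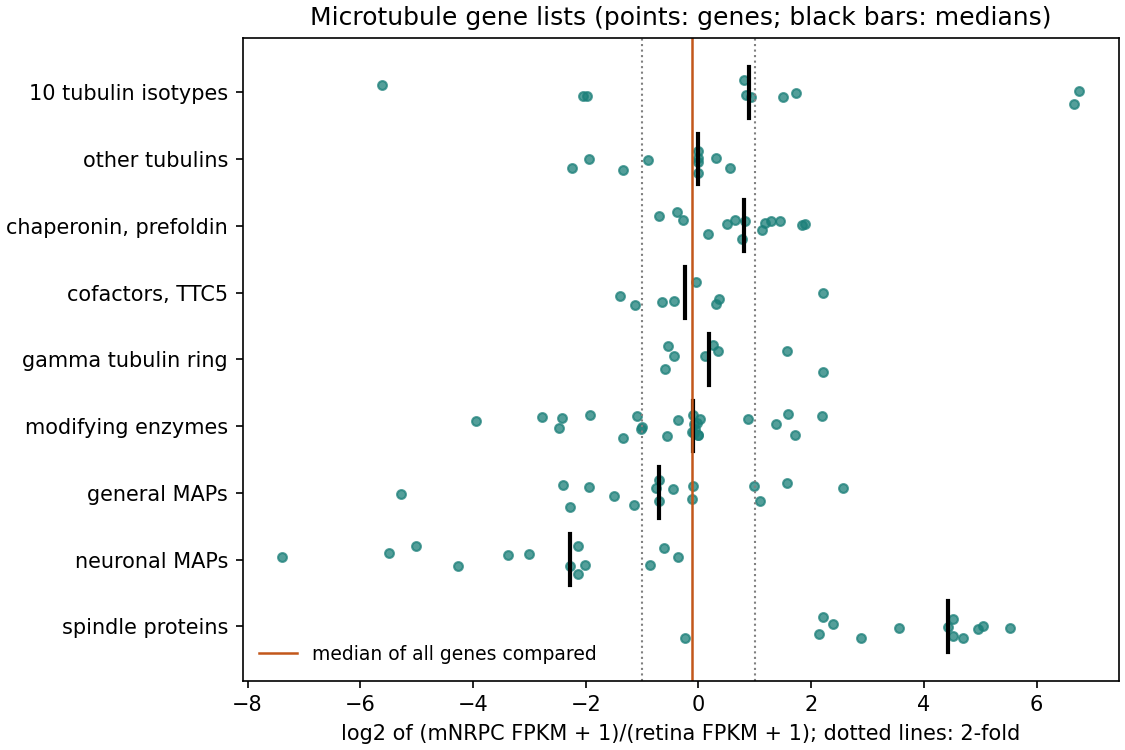
Log2 ratio of each gene (points) in the tubulin and microtubule gene lists, with black bars at the list medians and a vertical line at the median of all genes compared, −0.12. Spindle genes lie at positive ratios except 1, neuronal microtubule proteins at negative ratios, and the 10 isotypes on both sides.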

How the data were processed

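Expression was measured by RNA sequencing in 1 mNRPC library and 1 retina library, grouped by their labels. The values deposited by the authors are FPKM per RefSeq transcript. The study's methods, written for a treatment time course, name read quality control, Bowtie 2 and the program eXpress, while the submitters' processing notes name TopHat2 version 2.0.10 and build GRCm38.p3, so which aligner and counter made these values is uncertain. Read length is not given in the sources used here.

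Accessions were matched without version to the RefSeq gene table of GRCm38.p6, then to GENCODE M21. Of 106754 rows 74283 (69.6%) had a symbol. Rows of a gene were summed, and values below 1e-06 were read as 0. The other columns numbered 0. Depth was estimated from the level at which low values times length gather, over 6228 single-row genes of at least 1500 bp. Simulated data used the same lengths and formula, so they do not check whether the deposited values follow that formula. With limits of 500 and 2500 bp the estimates were 6.40e+06 and 6.55e+06 fragments in mNRPCs, and 4.85e+06 and 5.32e+06 in retina. Fragments per gene are that depth times FPKM times GENCODE length, so the 95% intervals (exact Poisson or binomial) and the limit of 3 fragments are approximate and cover counting error only.

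With 1 library a group no test was made. Named are all 10 isotypes, the other tubulins and, per microtubule list, the 2 genes at each end of the log2 ratio among those with at least 10 FPKM in a library and past 2-fold. Ttc5, Vash2, Rax, Rbpms, Sncg, Nefm, Grm6, Pde6h, Rlbp1, Rpe65, Col3a1, Col1a2, Pdgfrb, Acta2, Dcn and Lum were named after their values were seen. The isotypes and lists were chosen with earlier results of these data known. Some items are not reported here. Alternatives changed the number added before log2, the scaling, the rows of a gene, the filter on low values and the denominator of the shares. Computation used Python 3.11.15, pandas 2.3.3, scipy 1.17.1 and Biopython 1.88.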

Additional observations from a re-analysis of the deposited data

How the results depend on the processing

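All 10 isotypes kept the direction of their log2 ratio and their side of the 2-fold threshold under the 6 alternatives for pseudocount, scaling and rows. As each isotype has 1 row, the choice of rows changed none of them. The log2 ratio of the summed isotypes moved from 0.90 to 0.39 after rescaling to a common sum, 0.78 with trimmed mean scaling and 0.77 with upper quartile scaling, by construction. With 0.1 in place of 1, Tuba1c moved to 7.83, Tubb6 to 8.40 and Tubb4a to −6.64, and the median of the spindle genes from 4.43 to 5.85. The alpha percentage was 65.9% in mNRPCs and 63.1% in retina with FPKM times length, and 67.3% in retina with all alpha and beta genes. With FPKM times length Tubb5 held 64.2% of the beta sum in mNRPCs and 34.4% in retina. Tubb4b then held 14.8% in mNRPCs and 15.0% in retina, the reverse of its order by FPKM. Rescaling left 32.0% of genes past 2-fold on the higher side, against 44.9% as deposited, with 2 higher and 1 lower chaperonin and prefoldin genes and 2 lower genes of the gamma tubulin ring complex. Over the single isotypes, their shares and the list medians 124 values were the same within the counting interval, or within 0.5 for a median, and 40 moved. The 124 include all isotype values under the choice of rows, which could not change. They also include the beta shares with all alpha and beta genes, fixed because Tubb1 was listed at 0 in both libraries. The tally is therefore no measure of robustness. Depth limits Tubb6 and Tuba1c in retina and Tubb4a in mNRPCs. No paired analysis was possible because there was only 1 library to a group.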
